A study of Caenorhabditis elegans with 2 samples.

Results

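The insulin receptor to DAF-16 pathway was represented by 9 named genes: daf-2, age-1, aap-1, daf-18, pdk-1, akt-1, akt-2, sgk-1 and daf-16. The list was given by gene name, with earlier results of these data known, and all 9 were found among the 19973 protein-coding genes on the 6 nuclear chromosomes of the Ensembl 115 annotation of WBcel235, the assembly also called ce11. The binding data were 2 biological replicates of 1 group: whole Caenorhabditis elegans at the L4 larval stage, aged 48 hours, synchronised by starving L1 larvae after bleaching. All animals were strain RW12223, in which CRISPR editing joined TY1, EGFP and 3xFLAG tags to set-16 at its own locus on chromosome III (allele st12223), and anti-GFP antibody was used to pull down the tagged SET-16 in chromatin immunoprecipitation followed by sequencing (ChIP-seq). No untagged, untreated or mutant group was analysed here, so the results are positions and signals of called peaks and not changes between conditions. Whether a peak depends on the tagged SET-16 was not tested. Whole animals were used, so a peak cannot be assigned to a tissue, and enrichment in few cells cannot be told apart from weak enrichment in many.

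SET-16 is a MLL-type methyltransferase of histone H3 and a catalytic subunit of a COMPASS-like complex. In the insulin pathway of the worm, the receptor DAF-2 activates phosphoinositide 3-kinase, made of AGE-1 and its adaptor AAP-1, and the lipid it makes recruits the kinases PDK-1, AKT-1 and AKT-2, with SGK-1 as a related kinase. These kinases keep the FOXO transcription factor DAF-16 out of the nucleus, while the lipid phosphatase DAF-18 removes the lipid and so counteracts them. The pathway is known for its control of dauer formation, larval arrest, stress resistance and lifespan.

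The main set of peaks was the whole-series list that the authors named conservative, with 5795 peak summits. A summit is the base of highest enrichment in a called interval, and its signal is the authors' value, on an unstated scale, and is compared only within a list. Each peak also carries a score derived from its irreproducible discovery rate (IDR), a measure of how repeatably it ranks. Scores reached 1000, and the thresholded lists held none under 830, where the global IDR is 0.01. A gene was counted when a summit fell in its body or within 2000 bp to either side. Each replicate also had its own thresholded list, with 5876 summits in replicate 1 and 4377 in replicate 2, and ranked lists held the weaker candidates below the threshold.

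By that count 7 of the 9 pathway genes held a conservative summit, beside 26.1% of all protein-coding genes. Only age-1 and aap-1, the 2 subunits of phosphoinositide 3-kinase, held none. The gene windows together held 16 summits in 14 distinct intervals, which was 11.0 summits per 100 kb against 5.78 per 100 kb of the nuclear genome. Of those 16 summits, 8 belonged to daf-16, and without daf-16 the density was 6.91 per 100 kb. Among the 16, 10 lay inside a pathway gene body, 5 upstream and 1 downstream. The signal of the 16 spanned the list, with a median percentile of 48.1 where 100 is the strongest. The highest percentiles were 97.8 upstream of pdk-1, 95.8 upstream of daf-18 and 91.1 in a daf-16 intron.

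**Figure D1:**
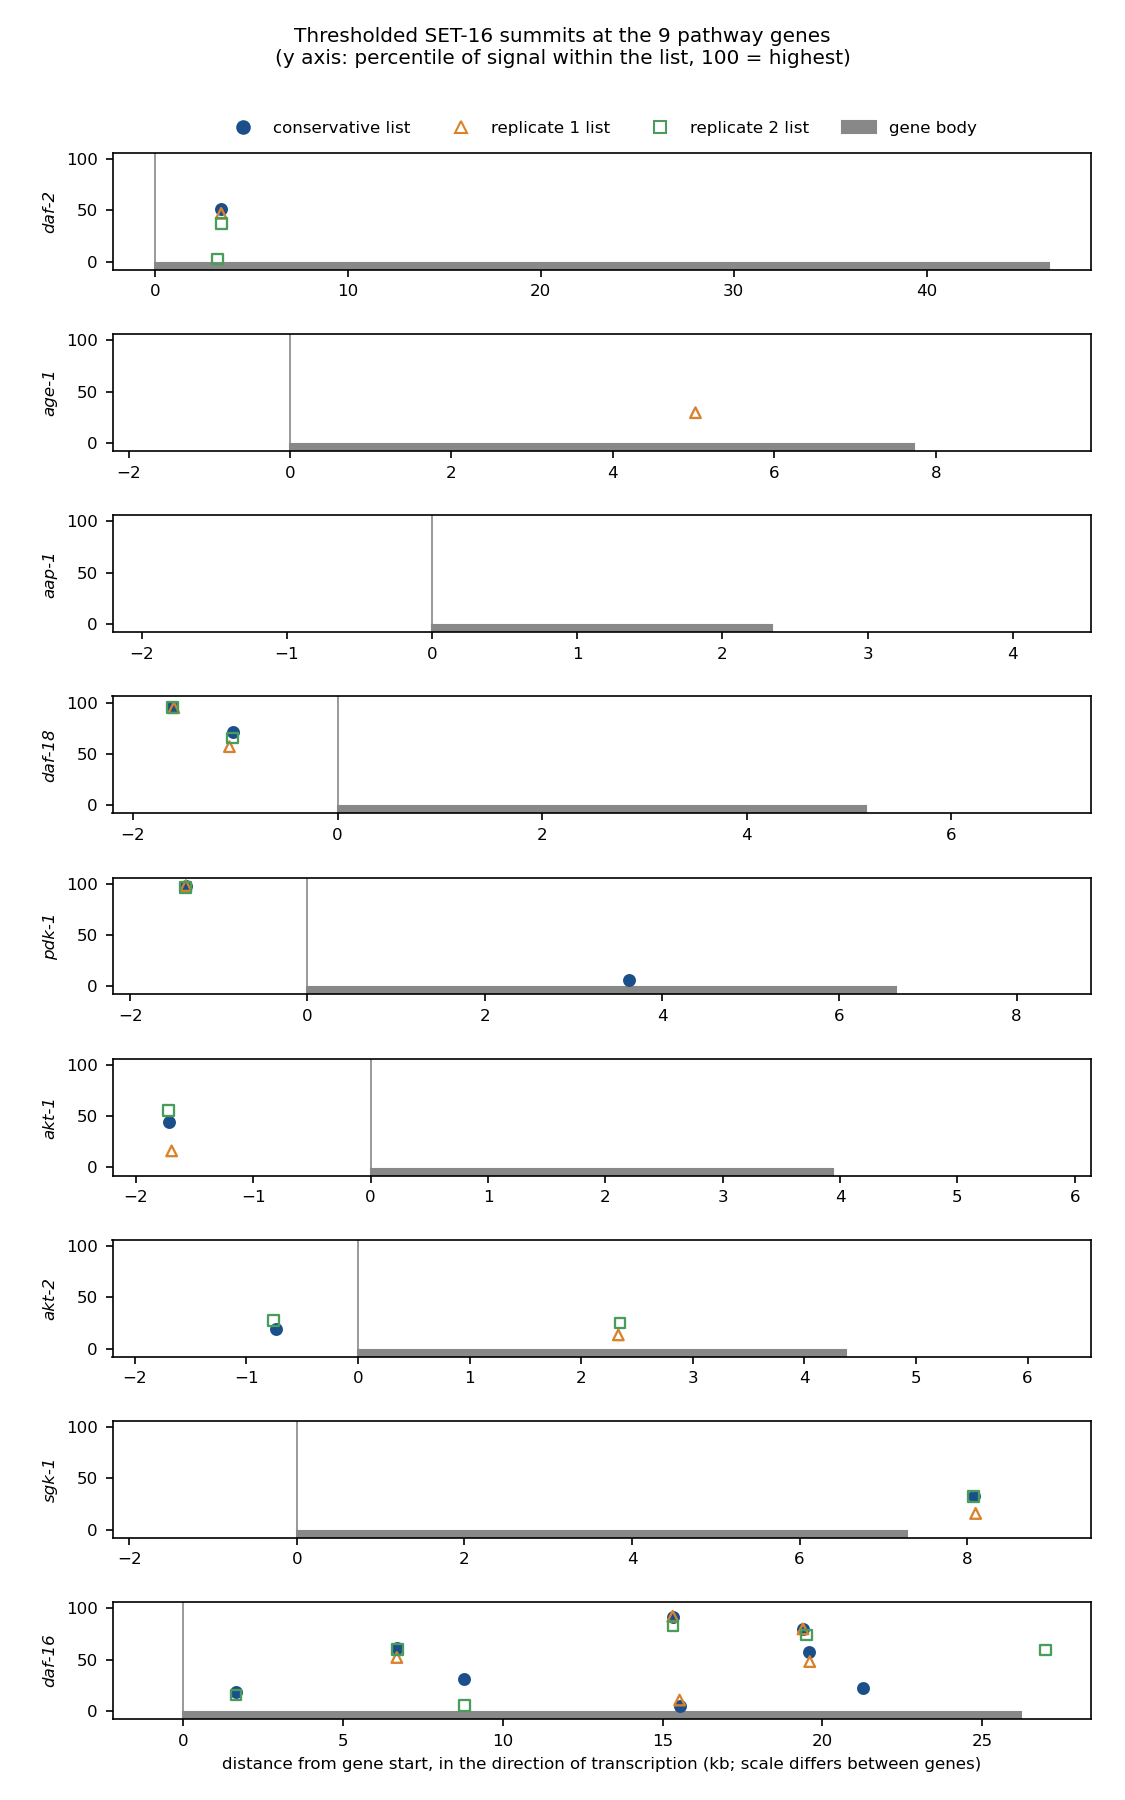
Positions of thresholded summits at the 9 pathway genes, with distance from the gene start in kb on the x axis and the percentile of signal within each list on the y axis; grey bars are gene bodies, filled circles the conservative list, triangles replicate 1 and squares replicate 2. The strongest summits lie upstream of daf-18 and pdk-1, the 8 conservative summits of daf-16 are spread along its body, and aap-1 has no symbol.

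Long genes offer more room for a summit, so each gene was also read beside genes of its own length. Of the 3 pathway genes under 5 kb, akt-1 and akt-2 held a summit and aap-1 did not, beside 22.1% of all genes of that length. Of the 4 genes of 5 to under 10 kb, daf-18, pdk-1 and sgk-1 held a summit and age-1 did not, beside 41.7%. Both genes of 20 kb or more, daf-2 and daf-16, held a summit, beside 68.2% of all such genes. In a promoter window reaching 1000 bp before the start and 200 bp past it, 1 of 9 genes, akt-2, had a summit, beside 6.99% of all genes. With a window from 2000 bp before the start to 500 bp past it, 4 of 9 did, beside 2524 of all 19973 genes. Many annotated starts in this species mark trans-splicing, and transcription may begin before them.

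The summits of daf-2, daf-18, pdk-1, akt-1, akt-2 and sgk-1 are shown as sequence, since they are the strongest or the sole conservative sites of their genes and differ in composition. Each line gives the 201 bases centred on the summit, taken from the RefSeq sequence of WBcel235, 5′ to 3′ on the plus strand. Capitals mark exact matches, on either strand, to the searched motifs in daf-2, akt-1 and akt-2, runs of 6 or more G and C in daf-18 and pdk-1, and the arms of an inverted repeat in sgk-1.
daf-2 summit, chrIII:3037311-3037511: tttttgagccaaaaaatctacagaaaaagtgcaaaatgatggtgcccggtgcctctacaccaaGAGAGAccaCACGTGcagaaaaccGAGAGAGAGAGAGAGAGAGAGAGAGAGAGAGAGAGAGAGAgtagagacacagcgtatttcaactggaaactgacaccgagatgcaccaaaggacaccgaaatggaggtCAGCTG
daf-18 summit, chrIV:426700-426900: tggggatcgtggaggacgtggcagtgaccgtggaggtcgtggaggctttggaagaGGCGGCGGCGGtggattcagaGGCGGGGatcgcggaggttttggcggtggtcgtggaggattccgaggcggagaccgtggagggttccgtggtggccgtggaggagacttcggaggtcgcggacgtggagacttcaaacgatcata
pdk-1 summit, chrX:1319870-1320070: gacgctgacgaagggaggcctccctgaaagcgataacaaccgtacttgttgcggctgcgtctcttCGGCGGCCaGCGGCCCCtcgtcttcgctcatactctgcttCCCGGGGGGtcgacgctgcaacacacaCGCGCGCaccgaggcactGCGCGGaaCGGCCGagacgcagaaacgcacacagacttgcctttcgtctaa
akt-1 summit, chrV:10247087-10247287: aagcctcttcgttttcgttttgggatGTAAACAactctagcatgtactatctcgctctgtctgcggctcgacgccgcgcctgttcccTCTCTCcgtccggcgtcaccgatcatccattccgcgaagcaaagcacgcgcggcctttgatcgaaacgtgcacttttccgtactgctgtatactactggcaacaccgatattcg
akt-2 summit, chrX:14146863-14147063: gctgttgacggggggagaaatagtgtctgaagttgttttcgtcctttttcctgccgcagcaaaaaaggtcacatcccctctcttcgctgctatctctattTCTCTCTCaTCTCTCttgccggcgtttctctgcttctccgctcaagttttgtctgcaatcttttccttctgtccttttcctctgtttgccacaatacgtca
sgk-1 summit, chrX:16253945-16254145: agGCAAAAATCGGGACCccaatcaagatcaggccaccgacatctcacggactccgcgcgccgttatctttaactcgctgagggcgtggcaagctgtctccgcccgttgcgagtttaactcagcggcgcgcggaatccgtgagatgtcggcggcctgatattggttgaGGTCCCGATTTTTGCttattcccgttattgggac

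The receptor gene daf-2 (WBGene00000898, chromosome III, 2994514 to 3040846, minus strand) encodes the insulin and IGF receptor. In its 46333 bp it held 1 conservative summit, at position 3037411. This summit lay 3435 bp downstream of the gene start, in a daf-2 intron and in an exon of linc-143, a long noncoding RNA gene on the same strand. Its signal was 175, rank 2797 of 5795, near the middle of the list. The replicates had signals of 93.8 (rank 3110 of 5876) in replicate 1 and 81.6 (rank 2741 of 4377) in replicate 2, so both called it above the threshold.

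The daf-2 site is in the transcript that begins farthest upstream, and the next start, that of transcript Y55D5A.5a.1, was 8611 bp downstream of the summit. A gene extent limited to the coding sequence put no summit in the daf-2 window. The 201 bases were 47.8% G and C, below the median of 54.7% over all conservative summits. They hold a GA repeat of 40 bp, a length that 0.673% of all conservative summit windows reached. Replicate 2 called a second, weak summit beside it at 3254 bp from the start, with a signal of 16.1.

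Among 198 protein-coding genes of 20 kb or more the median number of conservative summits was 1.5, and the number ran up to 17. With 1 summit, daf-2 was reached or exceeded by 135 of them, and 99 had 1 or none. Tiles of 200 bp were also compared within GC classes. Of tiles with 45% to under 50% G and C, 1 of 27 held a summit in the daf-2 window and 2 of 12 in the daf-16 window, beside 2.97% of all such nuclear tiles. Of tiles with 50% or more, 0 of 5 held one in daf-2 and 4 of 8 in daf-16, beside 27.6% of all such tiles.

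**Figure D2:**
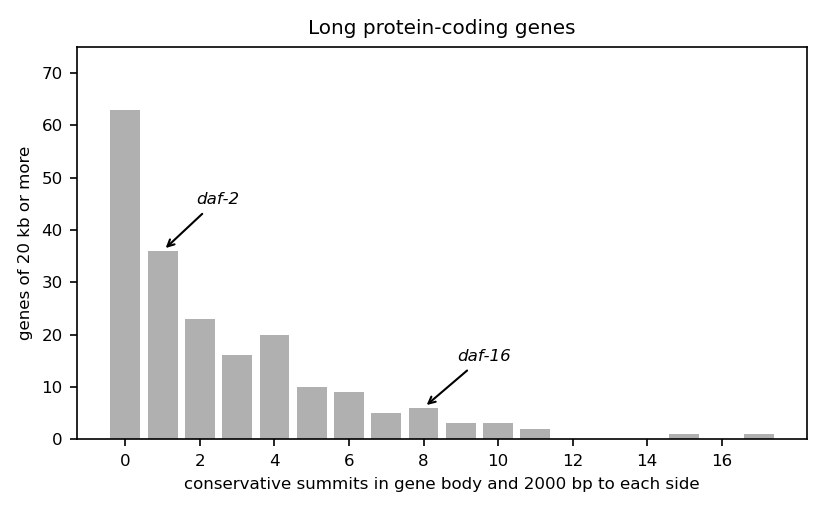
Number of protein-coding genes of 20 kb or more (y axis) by the number of conservative summits in the gene body and 2000 bp to each side (x axis); arrows mark the bars that hold daf-2 and daf-16. The gene daf-2 is in the bar at 1 summit and daf-16 in the bar at 8, which 16 of the 198 genes reach or exceed.

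The catalytic subunit gene age-1 (WBGene00000090, chromosome II, 11519328 to 11527054, minus strand) held no conservative summit, but its call depended on the list. Replicate 1 placed a summit of signal 65.9 and score 847, rank 4148 of 5876, 5023 bp downstream of the start. In replicate 2 the matching peak was below the threshold, with a signal of 31.6 and a score of 350. The second whole-series list, of 6905 summits, also called the site, with a signal of 103 and rank 4958. By that second list 8 of the 9 pathway genes held a summit, beside 29.6% of all genes, and by the replicate 1 list 8 of 9 did, beside 26.6%.

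The age-1 site lay in an age-1 intron and in a coding exon of the nested gene Y62F5A.10, which is transcribed from the opposite strand. The most GC-rich 201 bases of the age-1 window, 56.7%, were centred 5013 bp from the start, at this same place. The window's strongest upstream candidate, in an intron of the neighbouring gene mdt-8 at 1161 bp before the start, had a signal of 81.7 and a score of 814 in the conservative ranked list, under the lowest thresholded score of 830.

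The adaptor gene aap-1 (WBGene00000001, chromosome I, 5107843 to 5110183, plus strand) was the only pathway gene with no summit in any of the 4 thresholded lists. At 2341 bp it was also the shortest. Its window held no candidate in the conservative ranked list or in the ranked list of replicate 1. The ranked list of replicate 2 had 3 candidates, the strongest with a signal of 28.1 and a score of 290, in an aap-1 coding exon.

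The lipid phosphatase gene daf-18 (WBGene00000913, chromosome IV, 420011 to 425177, minus strand) had 2 conservative summits, both upstream of its start and neither in its body. The stronger, at 426800, lay 1623 bp upstream of daf-18 with a signal of 982, rank 242 of 5795. The weaker, at 426202, lay 1025 bp upstream with a signal of 273, rank 1672. Both were in coding exons of garr-1, the neighbouring gene, which runs the opposite way from position 426168, and the weaker was 34 bp from the garr-1 start. The assignment to daf-18 therefore rests on the window of 2000 bp.

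The replicates both placed the strong daf-18 site near the top of their lists, with signals of 578 (rank 297) in replicate 1 and 402 (rank 197) in replicate 2. For the weaker site the signals were 117 and 119. Its 201 bases were 51.7% G and C, whereas those of the strong site were 64.2% and hold a run of 11 G and C bases, shown in capitals above. The most GC-rich 201 bases of the whole daf-18 window, at 69.2%, were centred 38 bp from the strong summit.

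The gene pdk-1 (WBGene00003965, chromosome X, 1321344 to 1327986, plus strand) encodes the kinase that phosphorylates AKT and SGK. Its upstream summit was the strongest of the pathway. The summit lay at 1319970, in intergenic DNA 1374 bp before the start, in an interval from 1319724 to 1320193. The signal was 1277, rank 126 of 5795. Replicate 1 gave 848 (rank 105) and replicate 2 gave 428 (rank 173), so the site was in the upper part of both lists. The nearest protein-coding gene start was that of pdk-1. The 201 bases were 63.2% G and C with 6 runs of at least 6 such bases, and the GC maximum of the window, 65.7%, was 14 bp away.

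A second pdk-1 summit, in a coding exon 3632 bp downstream of the start, was at the other end of the list. Its conservative signal was 80.6 with a score of 857, rank 5442. In the replicates it was only a ranked candidate, with a signal of 29.5 and a score of 360 in replicate 1 and 56.7 and 347 in replicate 2. The second whole-series list did not hold it.

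The AKT genes encode the kinases that phosphorylate DAF-16. In akt-1 (WBGene00000102, chromosome V, 10248905 to 10252845, plus strand) the single conservative summit lay at 10247187, 1718 bp upstream of the start. It was in C12D8.25, a noncoding RNA gene of 141 bp whose extent, 10247117 to 10247257, nearly coincides with the called interval of 135 bp. The signal was 153, rank 3220. Replicate 1 had 50.5 (rank 4933) and replicate 2 had 102 (rank 1961), both above the threshold.

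In akt-2 (WBGene00000103, chromosome X, 14147700 to 14152070, plus strand) the single conservative summit lay in intergenic DNA at 14146963, 737 bp upstream of the start. This was the promoter summit of the pathway, and it was weak, with a signal of 102, a score of 871 and rank 4700. Replicate 2 called it with a signal of 73.4, whereas replicate 1 listed it below the threshold with a signal of 29.5 and a score of 148. The promoter call is therefore absent from the replicate 1 list.

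Inside akt-2 the replicates had a site that the conservative list lacked. Replicate 1 placed it in an intron at 2333 bp from the start, with a signal of 47.9 and a score of 946, and replicate 2 at 2347 bp, with 71.9 and 910. No conservative or conservative-ranked summit lay within 100 bp. Across the genome 3270 replicate 1 summits had a replicate 2 summit within 100 bp, and 58 of them, 1.77%, had no conservative summit there. The most GC-rich 201 bases of the akt-2 window, 61.7%, were centred at 2307 bp, beside this intronic site and 3044 bp from the conservative summit.

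The gene sgk-1 (WBGene00004789, chromosome X, 16254842 to 16262122, minus strand) encodes a kinase related to AKT. Its single conservative summit was the only downstream one, at 16254045, 797 bp beyond the gene end in intergenic DNA. The nearest protein-coding gene start, that of W10G6.6, was 3266 bp away. The signal was 127, rank 3868, with 50.3 (rank 4948) in replicate 1 and 77.0 (rank 2972) in replicate 2. The 201 bases hold an exact inverted repeat with arms of 15 bases and 150 bases between them, and 2.31% of all conservative summit windows hold arms as long or longer. Another exact pair of arms of 15 bases lies between these and was left in lower case in the sequence above.

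The FOXO gene daf-16 (WBGene00000912, chromosome I, 10750498 to 10776703, plus strand) encodes the transcription factor at the end of the pathway, and held 8 conservative summits in 26206 bp. Of the 198 genes of 20 kb or more, 16 (8.08%) had as many or more. All 8 were inside the gene body, the first 1675 bp downstream of the start and the last 21280 bp. By annotation 7 of 8 were intronic. The other, at 21280 bp, was in a coding exon that is the 642 bp first exon of transcript R13H8.1a.1, 270 bp downstream of the start of that transcript.

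The strongest daf-16 summit, at 10765828 and 15330 bp from the start, had a signal of 643 and rank 517. Replicate 1 gave 463 (rank 459) and replicate 2 gave 182 (rank 753). A weak second summit 15532 bp from the start shared its interval, with a signal of 55.6. The strong summit was 2174 bp downstream of the start of transcript R13H8.1l.1, and its 201 bases were 57.7% G and C. The GC maximum of the window, 60.2%, was 54 bp away.

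A second strong interval, from 10769717 to 10770240, lay upstream of the start of the R13H8.1a.1 transcript and held 2 summits. The first, 1617 bp upstream of that start, had a signal of 369 and rank 1154. The second, 1418 bp upstream, had 195 and rank 2493 and fell in R13H8.5, a noncoding RNA gene of 123 bp on the opposite strand. Replicate 1 resolved both, with signals of 239 and 95.6, whereas replicate 2 placed a single summit between them, with a signal of 140. The first of these summits holds a GA repeat of 26 bp, a length reached by 0.846% of all conservative summit windows, although its GC content was only 48.3%.

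The remaining daf-16 summits were of middle or low rank. The one at 6706 bp had a conservative signal of 214, rank 2246, and signals of 104 and 109 in replicates 1 and 2. The one at 1675 bp had 101, rank 4743, and the one at 8789 bp had 123, rank 3975. Both of these were called in replicate 2, with signals of 66.1 and 55.6, and fell short of the threshold in replicate 1, with scores of 815 and 799. The exonic summit at 21280 bp, with a signal of 107, was called in neither replicate list. Replicate 2 alone called a further site 776 bp beyond the end of daf-16, with a signal of 109. In all, daf-16 had 8 summits in the conservative list, 5 in replicate 1 and 6 in replicate 2.

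Of the 16 conservative summits at pathway genes, 11 (68.8%) overlapped an interval in both replicate lists, beside 3584 of all 5795 (61.8%). Replicate 2 alone covered 3, neither covered 2, and none was covered by replicate 1 alone. With summits matched within 100 bp in place of overlap, 9 of the 16 (56.2%) were in both replicate lists, beside 56.0% of all conservative summits. By that match 2 were in replicate 1 alone, 3 in replicate 2 alone and 2 in neither. At gene level, 7 of 9 pathway genes had a summit in replicate 2, beside 21.9% of all genes. The same 7 had one in both replicate lists, beside 18.8%. For akt-2 the replicate 1 call was the intronic site that the conservative list lacked. In the ranked lists all 16 had an overlapping candidate in both replicates, beside 98.9% of all conservative summits. The conservative list was made from both libraries, so a high share here was nearly built in and is not separate evidence of agreement.

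The ratio of replicate 1 to replicate 2 signal had a median of 0.952 over the 15 pathway summits matched in both, against 1.30 over all 5343 matched conservative summits. The pathway ratios ran between 0.401 at akt-2 and 2.55 at the strongest daf-16 summit, and the 5th and 95th percentiles of all matched summits were 0.449 and 2.65. Of the strong sites, the upstream pdk-1 summit had 1.98 and the strong daf-18 summit 1.44. Of the weaker ones, akt-1 had 0.497 and sgk-1 0.653, whereas the daf-16 summit at 15532 bp had 2.23. The signal scales of the 2 lists need not be the same, so the ratio is read only relative to the other summits.

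**Figure D3:**
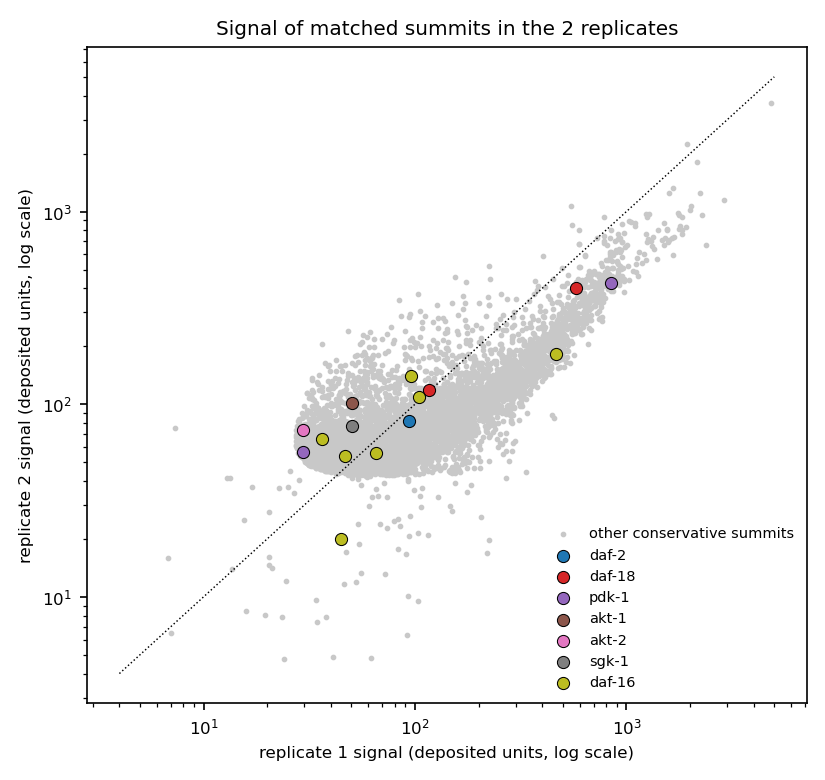
Signal in replicate 1 (x axis) and replicate 2 (y axis), both in the deposited units on log scales, for conservative summits matched in both ranked lists; grey points are all other summits, coloured points the pathway genes, and the dotted line marks equal signal. The pdk-1, daf-18 and daf-16 summits above 400 in replicate 1 lie under the line, and the akt-1, akt-2 and sgk-1 summits lie above it.

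Base composition moved with the presence of a summit across the genome. Of 200 bp tiles with at least 60% G and C, 66.6% held a conservative summit, against 2.97% at 45 to 50% and 0.0658% at 35 to 40%. The pathway summits had a GC content between 45.8% and 64.2%, with a median of 51.7%, against 54.7% over all conservative summits. The part of base composition in the position of the pathway summits was not tested.

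For each gene the most GC-rich 201 bases of the window were located. In 4 of the 7 pathway genes with a summit, daf-18, pdk-1, akt-1 and daf-16, the strongest summit lay within 100 bp of that place, beside 74.4% of 5208 genes. In the other 3 it was farther: 25103 bp in daf-2, 3044 bp in akt-2 and 1655 bp in sgk-1. The 2 genes with no conservative summit differed in composition. In age-1 the maximum was 56.7%, and over the genome 52.6% of 200 bp tiles in that GC class held a summit. In aap-1 it was 52.2%, a class with 18.4%. The maxima were taken at any position, whereas the shares are of fixed tiles, so they are not like for like. Of the fixed tiles wholly in the window, 3 reached 50% G and C in age-1 and none did in aap-1. In the 7 genes with a summit that number ran from 0 in akt-2 to 8 in daf-16.

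**Figure D4:**
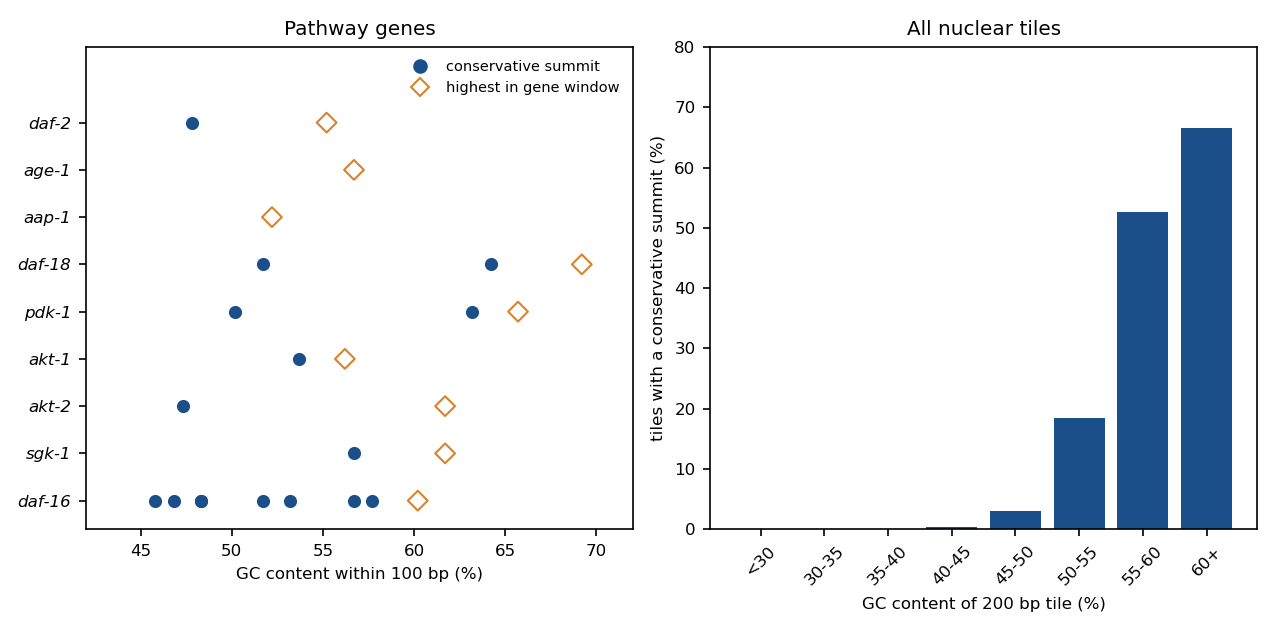
Left, GC content within 100 bp of each conservative summit (circles) and the highest GC content in each gene window (diamonds) for the 9 pathway genes; right, percent of all 200 bp nuclear tiles in each GC class that held a conservative summit. The daf-2 and akt-2 summits lie well below the maximum of their windows, and the share of tiles with a summit reaches 66.6% at 60% G and C or more.

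Motifs were searched on both strands within 100 bp of each summit. GTAAACA, the core of the DAF-16 binding element, was found at 2 of 16 pathway summits (12.5%), against 1.09% of all conservative summits. The 2 were the akt-1 summit, 74 bp from its centre, and the daf-16 summit at 8789 bp, 51 bp from its centre. Within 50 bp it was found at none of the 16, against 0.569% of all summits. CTTATCA, the DAF-16 associated element, was found at none of the 16, against 1.24%.

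GAGAGA, a GA repeat, was found at 8 of the 16 pathway summits, against 24.3% of all. Within 50 bp it was also found at 8 of 16, against 867 of all 5795. The 8 were those of daf-2, akt-1 and akt-2 and 5 of daf-16. CAGCTG, an E-box, was found at 2 of 16, against 696 of 5795, and CACGTG, an E-box as well, at the daf-2 summit alone (6.25%), against 6.16%. The 5 daf-16 sites share a gene and are not independent. A match describes the letters of the window and does not show that a factor binds there.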

How the data were processed

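Peak lists on ce11 were deposited by the authors for each replicate and for both libraries together, and per the readme they derive from filtered alignments with a control. No aligner or peak caller is named in the sources, and read depth is unknown because the lists hold no read counts. The deposited signal is the authors' value per peak, on an unstated scale. The deposited score is a scaled IDR, and the ranked lists also carry the authors' −log10 of the global IDR. The 16 columns of the ranked whole-series lists that hold values of single replicates were not used. The labels call the samples biological replicates, and whether they came from separate cultures is not stated.

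Summits were assigned to genes of the Ensembl 115 annotation by a window of the gene body and 2000 bp to each side. A promoter ran from 1000 bp upstream to 200 bp downstream, and replicate summits were matched within 100 bp. GC content was taken over the 201 bases centred on a summit. Members, lists and motifs were chosen with earlier results of these data known. With 1 group there is no contrast, so counts are given beside the share of all protein-coding genes with no test. Named genes were all 9 members with every summit, other pathway genes with a conservative promoter summit, and the genes nearest to or overlapping a summit. Sequences came from RefSeq for WBcel235. Python 3.11.15, numpy 2.4.6 and matplotlib 3.10.9 were used, and the summit assignment was tested on simulated data. Alternatives were the other lists, other windows, a signal limit, ranked lists and single replicates.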

Additional observations from a re-analysis of the deposited data

How the results depend on the processing

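Of 183 recomputed values, 124 stayed close to the value reported and 59 moved. Many of these values are small counts for single genes, and that of aap-1 was 0 at every setting. A change from 7 to 5 pathway genes with a summit was counted as close. The tally is therefore not a measure of how firm the results are. Using single replicates in turn gave 7 to 8 pathway genes with a summit, 13 to 15 summits, a median percentile of 48.0 to 55.2, a median GC content of 52.7% to 55.7%, and 0 to 1 promoter summits. The shares of all genes with a summit were then 21.9% in replicate 2 and 26.6% in replicate 1. With signal at or above the list median, 4 genes held 8 summits, beside 3204 of all 19973 genes, which was 5.48 per 100 kb against 2.89 in the genome, with a median percentile of 75.6, a median GC content of 55.0% and 0 promoter summits, beside 3.77% of all genes. With gene bodies alone, 3 genes held 10 summits, beside 13.0% of all genes, with a median percentile of 41.6 and a median GC content of 49.3%, and 3 genes had one in both replicate lists, beside 8.86%. Flanks of 1000 bp gave 5 genes with a summit, beside 20.4% of all genes, and 4 with a summit in both replicate lists, beside 14.3%. The median percentile was then 32.3 and the median GC content 49.3%. Flanks of 5000 bp gave a median percentile of 33.3. The second whole-series list gave a median percentile of 55.2. The ranked list gave 86 summits, 58.9 per 100 kb against 30.4 in the genome, a median GC content of 45.8%, 4 pathway genes and 15 other pathway genes with a promoter summit, beside 25.4% of all genes. A promoter of 2000 bp upstream gave 4 pathway genes with a promoter summit, beside 2524 of all 19973 genes, and one of 500 bp gave 0, beside 4.33%. GTAAACA was at 0% of pathway summits within 50 bp. The upstream summits of daf-18, pdk-1 and akt-1 lie between 1000 and 2000 bp from the start, so their assignment depends on the flank. With 1 group, no paired analysis was possible because no second group shares the replicate numbers. Whole animals, 2 libraries and an unknown depth limit what absence of a summit means.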

Other observations

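Of 44 other genes of insulin signalling, its regulators and its targets, 4 (9.09%) had a conservative promoter summit, beside 6.99% of all protein-coding genes, and 15 (34.1%) had a summit in the body or 2000 bp to each side, beside 26.1%. None of the 7 insulin-like ligand genes had a summit in either window. All 7 are under 5 kb, a class in which 22.1% of all genes held a summit in the body window. The groups of genes differ in length, and the part of gene length in their counts was not tested. In the body window, 4 of the 7 adaptor and kinase regulator genes had one, 4 of the 10 genes of DAF-16 partners and regulators, 2 of the 4 TOR branch genes, 3 of the 4 genes of parallel transcription factors, and 2 of the 12 DAF-16 target genes.

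Both 14-3-3 genes, grouped here with the DAF-16 partners and regulators, had a promoter summit. In ftt-2 the stronger of 2 had a signal of 284, rank 1612, at 481 bp upstream of the start, and in par-5 the signal was 206, rank 2344, at 136 bp upstream. The gene hlh-30, which encodes a transcription factor of autophagy genes, had a promoter summit of signal 541, rank 681, at 162 bp upstream. Its body window held 10 summits, the strongest with a signal of 1573. The gene is in the class of 20 kb or more, where the median was 1.5 summits and the highest number 17. Each replicate had a summit in the promoter windows of ftt-2, par-5 and hlh-30. The isocitrate lyase gene icl-1 had a promoter summit of signal 44.7, rank 5565, at 170 bp downstream of the start. Neither replicate had a summit in its promoter window. The body window of icl-1 held 4 conservative summits, the strongest with a signal of 460.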
